A study of Mus musculus with 3 samples.

Results

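The regions described here are RXRA peaks that lay between genes and were called in both multipotent progenitor libraries but not in the stem cell library. RXRA is a retinoid X receptor, a nuclear receptor that binds DNA in pairs, usually with a partner such as a retinoic acid, vitamin D, thyroid hormone or liver X receptor. A member is a peak of MPP replicate 1 that overlapped a peak of MPP replicate 2 by at least 1 bp and no HSC peak, with its summit outside every RefSeq gene of the mm10 build and more than 1 kb from any gene end. This gave 1997 members among the 29848 peaks of MPP replicate 1. MPP replicate 2 had 19570 peaks and HSC had 4047. The members were chosen by the measured peak calls of all 3 libraries, so these calls and the strength of the peaks are a description and support nothing by themselves.

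The multipotent progenitors (MPP) are the Lin-cKit+Sca1+ cells that lack CD150, taken 50000 per assay, and gave 2 libraries. The haematopoietic stem cells (HSC) are the Lin-cKit+Sca1+ cells without CD48 and with CD150, taken 10000 per assay, and gave 1 library. All cells came from bone marrow of C57BL/6 mice of about 10 months, pooled from 3 or 4 animals. The genotype is given as VavCre+; WT, and the growth protocol names Rxrab fl/fl (WT) mice. Vav drives Cre in blood cells, and the labels call all donors wild type. Every library was exposed to bexarotene, a synthetic RXR agonist, at 1 mM for 1 h, so both cell types share that treatment, and no untreated or control-antibody library was analysed here. RXRA-bound DNA was released by CUT&RUN, in which an antibody guides a nuclease to its target. Whether each MPP library had its own pool of mice is not stated in the labels, and the 1 HSC library allows no test between the cell types. Peaks carry no expression level, so the sorted identities could not be checked against marker genes.

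Many sites bound by nuclear receptors lie outside promoters, in enhancers, and the RXR partner decides which hormone or lipid the pair answers to. In blood, RXR and its partners are known for roles in myeloid differentiation, lipid handling by macrophages and the control of inflammatory genes. The sequences under the members were not analysed here, so they are described by position, strength and neighbouring genes.

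Of all MPP replicate 1 peaks, 10882, or 36.5%, were found in MPP replicate 2 and not in HSC, and the members are the 1997 of these that lay between genes. The others were 5003 peaks at gene ends and 3882 inside genes. Among intergenic MPP replicate 1 peaks without an HSC counterpart, 30.9% (95% exact binomial interval 29.8 to 32.1%, 1997 of 6456) were also called in MPP replicate 2. The share was 54.1% for peaks at gene ends and 34.5% for peaks inside genes. Stronger peaks were found again more often. In the strongest of 5 equal bins of MPP replicate 1 peaks by fold, the share was 59.1% for intergenic peaks, 83.0% at gene ends and 68.2% inside genes. In the weakest bin it was 15.9% for intergenic peaks, 28.7% at gene ends and 17.1% inside genes. These shares are counts of calls, and the difference between locations was not tested.

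Member peaks were narrow and of moderate strength. Strength is given as the deposited fold enrichment of each summit, which sets the pileup of fragments against the local background. In MPP replicate 1 the members' fold ran between 2.07 and 12.6, with a median of 4.84 and quartiles of 4.13 and 5.81. In MPP replicate 2 it ran between 2.09 and 15.2, with a median of 5.69 and quartiles of 4.81 and 6.73. The recovered pileup at the summit had a median of 19 fragments in MPP replicate 1 and 13 in MPP replicate 2. Folds of separate libraries stand on separate scales and were not compared in size. Intergenic peaks called in all 3 libraries had higher medians, with folds of 5.49 and 6.88 and pileups of 26 and 20 fragments in MPP replicates 1 and 2.

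The paired peaks sat on the same spot in both MPP libraries. The median distance between their summits was 38 bases, 84.7% of members (1692) had summits within 100 bases, and 94.6% (1889) overlapped by at least 50% of both peaks. Only 8 members overlapped by 50 bases or fewer, the smallest by 1 base. The order of strength was kept in part: Spearman's rho between the folds was 0.35 over 1997 members, a description across peaks that share library and depth, and 61 of the 200 strongest members of replicate 1 were among the 200 strongest of replicate 2. Members with summits 1000 to 1250 bp from a gene end, just inside the rule, numbered 53 with median folds of 4.58 and 5.62, and the 61 peaks at 750 to 1000 bp, just outside it, had medians of 4.65 and 5.32.

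**Figure D1:**
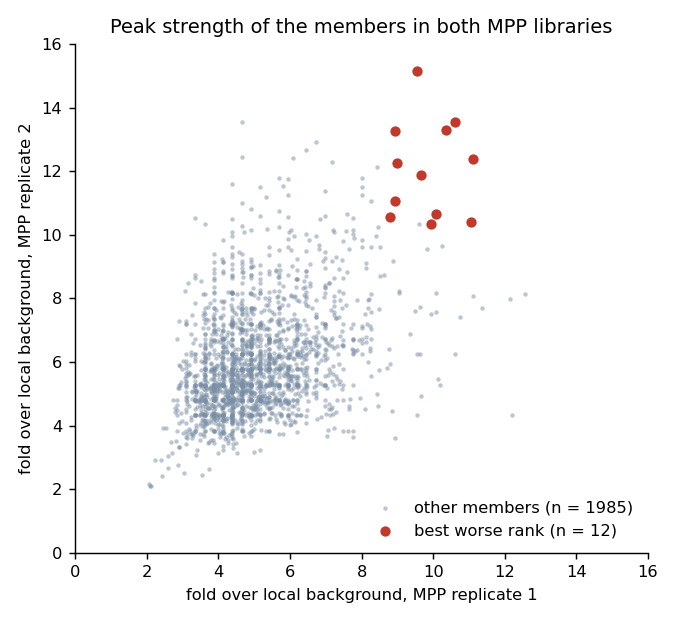
Fold over local background of each of the 1997 members in the first (x axis) and second (y axis) MPP replicate, on linear scales. The 12 members of best worse rank, in red, lie at 8.79 to 11.1 and 10.4 to 15.2, and the others form a broad cloud.

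The strongest members were singled out by rank, taking for each the worse of its ranks in the 2 MPP libraries. The 12 best had folds of 8.79 to 11.1 in replicate 1 and 10.4 to 15.2 in replicate 2, pileups of 33 to 54 and 21 to 34, and summits 3 to 48 bases apart. Since the rule for naming them used these folds, the values are a description. Of the 12, 4 lay within 10 kb of a protein-coding gene and 4 lay more than 50 kb away. The nearest HSC summit was 18.4 to 1690.2 kb away.

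The first, chr7:5101215-5101619 in mm10 as are all positions here, had a fold of 10.6 in MPP replicate 1 and 13.5 in MPP replicate 2, with pileups of 45 (95% Poisson interval 32.8 to 60.2) and 33 (22.7 to 46.3). It lay 3.2 kb downstream of Epn1, an endocytic adaptor. The second, chr10:43856404-43856714, had folds of 11.1 and 12.4 and lay 17.7 kb downstream of Qrsl1, part of the mitochondrial glutaminyl-tRNA amidotransferase. A member 21.2 kb from Actb, the gene of cytoplasmic beta-actin, at chr5:142929002-142929410, had folds of 10.4 and 13.3. The member chr2:153084278-153084609, with folds of 9.65 and 11.9, lay 2.7 kb from Ccm2l. These 4 regions had replicate 2 pileups of 27 to 34 fragments, and replicate 1 pileups of 41 to 49.

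Farther from genes, chr3:62159110-62159481 had folds of 9.56 and 15.2, the highest replicate 2 fold of all members. It lay 179.6 kb upstream of Arhgef26 and 1690.2 kb from the nearest HSC summit. Another 3 of the 12 also lay over 50 kb from a protein-coding gene: chr6:135450617-135451066 (folds of 10.1 and 10.7, 67.6 kb downstream of Emp1), chr6:94760810-94761232 (9.0 and 12.2, 60.6 kb upstream of Lrig1) and chr5:120018130-120018466 (8.94 and 13.3, 98.3 kb upstream of Rbm19). Lrig1 is a receptor regulator that restrains growth factor signalling. The remaining 4 lay beside Rcbtb2, Zfp945, Slc1a3 and Ola1. Slc1a3, a glutamate transporter, was 8.6 kb from chr15:8625435-8625765, which had folds of 11.1 and 10.4 and the highest pileup of the 12 in replicate 1, 54 fragments.

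Members lay from just past 1 kb to more than 100 kb from genes. The median distance between the summit and the nearest gene end of any kind was 8647 bp, and to the nearest protein-coding gene end it was 17276 bp. Within 5 kb of a gene end of any kind lay 31.8% of members, and over 100 kb from a protein-coding gene end lay 10.8% (9.44 to 12.2%, 215 of 1997). The second share was 24.2% (20.8 to 27.9%) for the 583 intergenic peaks of all 3 libraries and 13.3% (12.3 to 14.3%) for the 4459 intergenic peaks of MPP replicate 1 found in no other library. Peaks are not replicates and in part stand in clusters, so the intervals cover counting error only and no test was made. The sets also differ in local background. Its 95th percentile in MPP replicate 1 was 66.5 fragments for peaks of all 3 libraries and 4.58 for members. The part of such regions in these shares was not tested. Between 10 and 50 kb lay 42.5% of members.

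**Figure D2:**
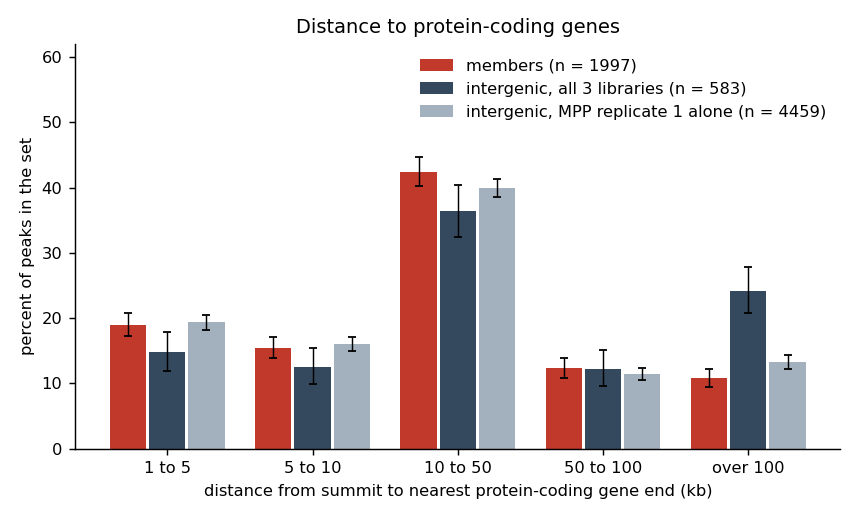
Percent of peaks (y axis) by distance from the summit to the nearest protein-coding gene end in kb (x axis) for members, intergenic peaks of all 3 libraries and intergenic peaks of MPP replicate 1 alone; bars are shares and lines are exact 95% binomial intervals. In the bin over 100 kb, members stand at 10.8%, against 24.2% and 13.3%.

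The nearest gene of any kind was protein-coding for 48.7% of members, a long noncoding RNA gene for 32.9%, a pseudogene for 14.2% and of other kind for 4.16%. Among members whose nearest protein-coding gene had a known strand, 56.5% (54.0 to 59.0%, 888 of 1572) lay upstream of it, against 52.8% (48.0 to 57.4%) for intergenic peaks of all 3 libraries and 51.9% (50.2 to 53.6%) for peaks of MPP replicate 1 alone. The farthest member from any gene, chr14:36316811-36317044, lay 219.5 kb away with folds of 4.91 and 9.13. The next ones were chr1:142894235-142894469 (199 kb, folds of 4.39 and 4.32) and chr1:137560430-137561008 (173.8 kb, folds of 4.13 and 4.6).

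Members were spread over the autosomes at 1.58 per Mb of sequence between genes, lowest on chromosome 14 at 1.01 and highest on chromosome 11 at 2.55. Chromosome X held 14 members, 0.12 per Mb, and 14.7% of its 95 intergenic MPP replicate 1 peaks were members. On the autosomes that share ran from 23.9% on chromosome 5 to 32.5% on chromosome 17. Chromosome Y held 21 intergenic MPP replicate 1 peaks, of which 2 were members. The labels do not give the sex of the mice. Below 3.1 Mb, where mouse chromosomes start, 16 members stood apart: their median fold in replicate 1 was 2.96 and their median local background was 28.4 fragments, reaching 116, while the genome-wide background was 2.87. Leaving out members with a local background of over 3 times the genome-wide one in either MPP library left 1944.

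Members clustered in part. With summits at most 25 kb apart, 529 members, or 26.5% (24.6 to 28.5%), stood in 237 clusters, 43 of which held 3 or more, and the largest held 5. The share was 23.3% (20 to 27%) for intergenic peaks of all 3 libraries, whose largest cluster held 29, and 35.4% (34.0 to 36.8%) for peaks of MPP replicate 1 alone, a larger set. The first cluster of 5 spanned 27.1 kb on chromosome 11 around Socs3, which encodes a suppressor of cytokine signalling that acts on STAT proteins, and Pgs1. The members had folds of 7.36, 5.79, 5.06, 4.89 and 4.47 in replicate 1 and 5.30, 6.49, 4.59, 5.21 and 4.62 in replicate 2. Of the 5, 4 lay 2.5 to 13.7 kb downstream of Socs3 and the other lay 9.2 kb upstream. The Socs3 cluster lay at a local background of 3.70 to 4.93 fragments, and no HSC summit was nearer than 166.5 kb.

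The other clusters of 5 had a higher local background. That on chromosome 6 between Gm40363 and Pdia4, a protein disulfide isomerase, spanned 25 kb with replicate 1 folds of 2.78 to 5.69 and backgrounds of 3.92 to 15.8 fragments. That at the start of chromosome 17 had folds of 2.59 to 3.37, backgrounds of 19.1 to 36.7 fragments and HSC summits only 0.6 to 2.9 kb away. Its 5 members are among the 16 described above. Among the clusters of 4, listed after their values were seen, 1 lay beside Wee1, the kinase that holds back entry into mitosis, and 1 between Ercc1 and Fosb, a part of the AP-1 factor.

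The 2996 protein-coding genes with a member within 50 kb, 13.7% of 21900, carried peaks at their own ends more often than genes without one. A peak of MPP replicate 1 lay within 1 kb of a gene end in 52.3% of these genes, against 39.4% of genes with no member and 41.2% of all. For MPP replicate 2 the shares were 45.4%, 34.5% and 36.0%, and for HSC 10.6%, 7.83% and 8.21%. The part of gene density in these shares was not tested. Of the genes with a member, 2447 had 1, 448 had 2 and 81 had 3.

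The genes with most members nearby were Gm40363 with 6, and Socs3, Pgs1 and Pdia4 with 5. Rab7, Rpn1, Olfr372, Mcl1, Adamtsl4 and Cdk19 each had 4. Genes side by side share their members, so these counts are not independent. Mcl1, which keeps stem and progenitor cells from apoptosis, had members 3.2, 6.2 and 11.5 kb upstream, with replicate 1 folds of 4.50, 5.41 and 6.46 and replicate 2 folds of 5.85, 7.30 and 8.08. A member 44.5 kb downstream had folds of 6.53 and 6.33. Rab7 and Rpn1 lie on the same stretch of chromosome 6 as Gata2, a transcription factor that stem cells need. Their shared members at chr6:88060651-88060961, chr6:88065078-88065435 and chr6:88074961-88075392 had folds of 8.63, 6.96 and 5.69 in replicate 1 and 8.75, 6.2 and 7.69 in replicate 2. Gata2 itself had 1 member within 50 kb, 22.4 kb downstream, with folds of 7.46 and 6.96.

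Genes of 14 lists were then compared with that background share of 13.7%. With a member within 50 kb, the inflammatory and interferon list had 14 of 22 genes (63.6%, interval 40.7 to 82.8%), the myeloid list 11 of 21 (52.4%, 29.8 to 74.3%) and the heptad of blood transcription factors 5 of 7 (71.4%, 29.0 to 96.3%). The cell cycle list had 8 of 20 (40%, 19.1 to 63.9%) and targets of RXR heterodimers 9 of 26 (34.6%, 17.2 to 55.7%). Other stem cell regulators had 8 of 25 (32%, 14.9 to 53.5%) and stem and progenitor surface genes 6 of 19 (31.6%, 12.6 to 56.6%). The lymphoid list had 5 of 22, RXR and its partners 4 of 19, and the erythroid and megakaryocyte list 2 of 15. Of the MYC network 1 of 16 genes had one, Mlxip. Among lists from outside blood, 3 of 15 neuron genes and 0 of 15 liver and 0 of 15 muscle genes had one, and 0 of 15 allows a share of up to 21.8% by the exact interval. The intervals cover counting error over genes, and the lists were chosen with earlier results of these data known, so the counts are a description without a test. A gene was counted also where its members lay nearer to another protein-coding gene, and such genes are named further down.

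**Figure D3:**
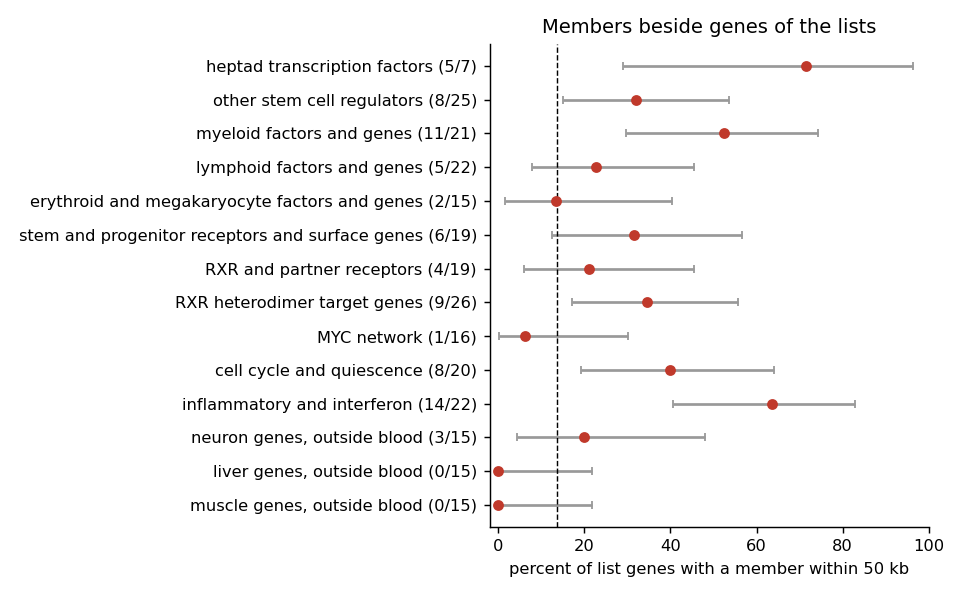
Percent of genes in each list with a member within 50 kb (x axis, points), with exact 95% binomial intervals (lines) and, in brackets, the genes with a member over those found. The dashed line marks the 13.7% of all protein-coding genes. The erythroid and megakaryocyte, MYC network, liver and muscle lists lie to its left, with liver and muscle at 0. All other lists, the neuron list included, lie to its right.

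The same count was made for the other intergenic peaks. For intergenic peaks of all 3 libraries, which lay within 50 kb of 3.73% of protein-coding genes, the inflammatory list had 3 of 22 genes. The heptad had 1 of 7, the myeloid list 2 of 21, the cell cycle list 2 of 20 and the MYC network 2 of 16. The neuron, liver and muscle lists had 0 of 15 each, and every other list had 1 or 2 genes. For peaks of MPP replicate 1 alone, near 25.4% of genes, the inflammatory list had 9 of 22, the heptad 6 of 7 and the myeloid list 10 of 21. Of other lists, the 1997 members lay near 8 other stem cell regulators, 5 lymphoid and 2 erythroid and megakaryocyte genes. They also lay near 9 RXR target, 3 neuron and 0 liver genes. For the 4459 peaks of MPP replicate 1 alone, these counts were 14, 10, 8, 12, 6 and 5. Members lay near 13.7% of all protein-coding genes and the other peaks near 25.4%, so the raw counts were not compared in size. The 14 inflammatory genes are not 14 separate sites: they share members where they lie side by side (Ifnar1 with Ifnar2, Ccl3 with Ccl4), so the list rests on 19 distinct members. In the myeloid list S100a8 and S100a9 share 1, and that list rests on 16 distinct members. With q of at most 1e-05 required in every peak list, a setting chosen after seeing the data, 8.19% of all genes were near a member. This setting kept 9 of the 14 inflammatory, 4 of the 11 myeloid and all 5 heptad genes, and added none to these lists. A window of 20 kb, beside 6.74% of all genes, left 10 inflammatory, 7 myeloid and 1 heptad genes.

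In what follows, a gene with 1 member has its fold in MPP replicate 1 and then in MPP replicate 2, and a gene with several has all its replicate 1 folds and then all its replicate 2 folds. No HSC peak overlapped any of these members. HSC did have a peak within 1 kb of an end of Abcg1, Egr1 and Ifnar2, and of Pdia4 and Cdk19 named above. Of all protein-coding genes, 8.21% had such an HSC peak. A member within 50 kb of a named gene can lie nearer to another protein-coding gene. Besides the genes noted below, all members of Mpo, Cd33, Tnf, Ifnar1, Vdr, Rxrb, Thra, Esam and Il6ra did so. So did those of Epor, Zfpm1, Tgm2, Rbfox3 and Mcm2, and some of Socs3, Ifnar2, Egr1, Abcg1, Scd2 and Cdkn1a. Among other genes counted in the lists, all members of Stat2, Stat3, Nfkbia, Irf8, Irf4, Csf1r and S100a8 did so. The same held for Lpcat3, Scd1, Cyp24a1, Crabp2 and Mlxip, and for Ccl4, whose shared member was nearer to Ccl3.

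Among inflammatory genes, Myd88, the adaptor of Toll-like receptors, had a member 1.5 kb downstream, with folds of 10.7 and 7.41 and pileups of 45 and 16 in MPP replicates 1 and 2. It was the list's strongest member in replicate 1, and that of Ccl3 and Ccl4 in replicate 2. Socs3 had the cluster above. Ifnar2, a chain of the type I interferon receptor, had 3 members, at 17.5 kb upstream and 28.1 and 46.5 kb downstream, with replicate 1 folds of 4.86, 4.65 and 4.48 and replicate 2 folds of 6.31, 4.98 and 4.84. The last of these was also 33.0 kb upstream of Ifnar1. Tnf, the cytokine, had 2, at 20.7 kb downstream and 16.6 kb upstream, with replicate 1 folds of 4.62 and 3.86 and replicate 2 folds of 5.35 and 4.88. Ccl3 and Ccl4, chemokines, shared 1 with folds of 6.46 and 8.21.

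Among myeloid genes, Klf4, a factor of monocytes, had 3 members downstream, at 12.2, 37.7 and 38.4 kb, with replicate 1 folds of 4.39, 5.69 and 4.91 and replicate 2 folds of 4.23, 5.21 and 6.81. Mpo, the enzyme of neutrophil granules, had 3 at 38.4, 44.2 and 45.0 kb upstream, with folds of 2.95, 4.70 and 3.90 and of 4.41, 5.40 and 4.09. Cd33, a surface receptor of myeloid cells, had 2 upstream with folds of 7.14 and 5.32 and of 7.62 and 6.86. Cebpb, a factor of emergency granulopoiesis, had 2 downstream, with folds of 6.39 and 3.83 and of 8.09 and 4.32.

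Among heptad factors, Runx1, which is needed for blood formation, had 3 members, at 19.5 kb downstream and 41.3 and 48.1 kb upstream, with folds of 5.17, 4.13 and 4.58 and of 6.49, 6.15 and 4.81. Lyl1 had 2 at 37.4 and 44.6 kb upstream, with folds of 4.45 and 4.85 and of 6.05 and 4.30, and Fli1 had 2 with folds of 5.17 and 4.39 and of 4.67 and 5.67. Both Lyl1 members were nearer to Ier2, and the Gata2 member was nearer to Dnajb8. Nearness is a position only and assigns no target gene. Tal1 had 1, 24.3 kb downstream and nearer to Pdzk1ip1, with folds of 4.42 and 5.61; it falls outside the rule for named genes and is given to complete the heptad. Erg and Lmo2 had none within 50 kb.

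Among other regulators, Hhex, a homeobox factor of stem cells and lymphoid progenitors, had 3 members, the nearest 2.3 kb downstream with folds of 5.69 and 8.77. Egr1, which is tied to stem cell quiescence, had 2 at 4.9 and 22.5 kb, with folds of 4.63 and 5.80 and of 7.67 and 8.0. Myb had 1 with folds of 5.17 and 5.89, nearer to Ahi1, and Gfi1b had 1 with folds of 5.01 and 4.64. Bcl11a, a factor of lymphoid development, had a member 11.5 kb downstream with folds of 10.3 and 9.66, the strongest of its list. Id3, Bcl11b and Id2 had 1 each with replicate 1 folds of 6.01, 5.33 and 5.08 and replicate 2 folds of 5.45, 5.29 and 6.19. The Id3 member also lay 24.4 kb upstream of E2f2.

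Among receptors, Esam, an adhesion molecule found on stem cells, had 2 members with folds of 10.1 and 4.27 and of 5.47 and 5.62. Il6st, the shared chain of IL-6 family receptors, had 1 with folds of 6.26 and 7.91, Cd27 1 with 5.86 and 4.76, and Il6ra 1 with 5.65 and 7.20. Vdr, the vitamin D receptor, had 2 with folds of 5.93 and 3.65 and of 4.53 and 4.18. Rxrb had 2, with folds of 5.43 and 3.59 and of 6.69 and 3.68, Rxrg 1 with folds of 4.91 and 3.68, and Thra 1 with folds of 4.50 and 7.50. Rxra itself had none within 50 kb: its nearest member, at 328.9 kb, had folds of 3.97 and 5.89. Epor and Zfpm1, the erythroid genes with a member, had folds of 5.94 and 5.16 for Epor and 3.66 and 4.06 for Zfpm1.

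Among genes known as targets of RXR heterodimers, Abcg1, a cholesterol exporter driven by liver X receptors, had 3 members, with replicate 1 folds of 7.23, 5.09 and 4.58 and replicate 2 folds of 7.92, 6.50 and 5.97. Mylip, which degrades the LDL receptor, had 2 with folds of 5.81 and 4.91 and of 5.61 and 5.60. Scd2, a fatty acid desaturase, had 2 with folds of 5.71 and 3.36 and of 10.8 and 6.02. Tgm2, a transglutaminase that retinoids induce, had 1 with folds of 6.85 and 10.5. Of the cell cycle genes, Cdkn1a, an inhibitor of cyclin-dependent kinases, had 2 with folds of 6.92 and 4.17 and of 5.27 and 3.57, and Mki67 had 1 with 6.21 and 7.31. In the neuron list, Rbfox3 had 1 with folds of 7.29 and 5.57, and Dlx1 and Dlx2 shared 1 with 6.98 and 6.06.

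Promoters of these genes were also read for short motifs, since peaks of both MPP libraries overlapped some of them. A RefSeq promoter ran from 250 bases before to 50 after the gene start, and 61 list genes had a member and such a promoter. Of these genes, 22 had a promoter overlapped by peaks of both MPP libraries and 7 by an HSC peak. The share over all promoters is not given here, so these counts describe the list genes only. Within 1 kb of a gene end, a wider measure, 41.2% of all protein-coding genes had a peak in MPP replicate 1. The shares were 36.0% in MPP replicate 2 and 8.21% in HSC. No member overlapped any promoter, which the rule of over 1 kb from any gene end largely fixes. The hexamer AGGTCA, the core that nuclear receptors read, was on either strand in 3 of the 22, and in 16.3% of all 32851 promoters. The ETS motif GGAAGT was on either strand in 6 of the 22 and in 23.8% of all. The 22 are genes picked by their peaks, and a gene can have more than 1 promoter. The percents are over promoters, so counts and percents were not compared. Ccl3, Tlr2 and Mcm2 hold the hexamer, and were chosen after their values were seen. Tlr2, a Toll-like receptor, and Mcm2, a part of the replicative helicase, had members 3.5 kb and 28.3 kb upstream, with folds of 4.86 and 4.94 for Tlr2 and 3.10 and 5.29 for Mcm2. Their promoters, from RefSeq on GRCm38.p6 in the direction of transcription, show where the motifs stand; capitals mark both motifs on either strand.
Ccl3: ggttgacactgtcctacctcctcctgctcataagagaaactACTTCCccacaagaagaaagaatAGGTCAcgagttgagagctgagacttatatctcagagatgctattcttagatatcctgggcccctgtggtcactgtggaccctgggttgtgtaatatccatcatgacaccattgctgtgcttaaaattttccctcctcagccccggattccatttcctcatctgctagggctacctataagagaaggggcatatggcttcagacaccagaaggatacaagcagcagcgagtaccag
Tlr2: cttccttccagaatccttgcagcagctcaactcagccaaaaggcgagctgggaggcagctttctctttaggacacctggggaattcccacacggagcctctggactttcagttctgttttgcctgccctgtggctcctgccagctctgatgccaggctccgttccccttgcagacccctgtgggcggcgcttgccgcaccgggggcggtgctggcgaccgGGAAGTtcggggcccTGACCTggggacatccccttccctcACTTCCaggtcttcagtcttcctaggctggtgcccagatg
Mcm2: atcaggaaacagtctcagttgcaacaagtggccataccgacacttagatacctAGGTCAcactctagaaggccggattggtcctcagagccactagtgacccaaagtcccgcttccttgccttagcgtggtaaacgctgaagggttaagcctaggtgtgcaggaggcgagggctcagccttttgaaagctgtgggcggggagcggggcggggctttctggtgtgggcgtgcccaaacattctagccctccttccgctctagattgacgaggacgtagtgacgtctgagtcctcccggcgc
These promoters are all on the minus strand, that of Ccl3 at chr11:83649329-83649628, that of Tlr2 at chr3:83841559-83841858 and that of Mcm2 at chr6:88898731-88899030. The Ccl3 promoter carried peaks with folds of 3.62 and 5.08 in MPP replicates 1 and 2, the Tlr2 promoter of 5.57 and 6.43, and the Mcm2 promoter of 5.66 and 6.10. A match is a run of letters and not a measured site, and promoters without it lack only these letters in this window. Promoters of all genes beside members held the nuclear receptor hexamer in 13.3% and the ETS motif in 23.5% of cases, and the SP/KLF motif CCGCCC on either strand in 55.3%, against 35.7% of all promoters. The E-box CACGTG was in 9.08% of promoters of genes beside members, against 7.15% of all. The RUNX motif TGTGGT on either strand was in 13.2%, against 16.8%, the GATA motif AGATAA in 7.49%, against 11.2%, and the NFY motif CCAAT in 37.2%, against 37.4%. These shares are over 3006 promoters of genes beside members and all 32851 promoters. Whether both sets hold the same kinds of gene was not examined, and the differences were not tested.

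Myc, whose pathway the series title names, had no member within 50 kb. Its nearest member, chr15:63678937-63679194, lay 1.69 Mb from the gene start, with folds of 5.17 and 6.02 and pileups of 19 and 12. The next, chr15:63704776-63705021, at 1.72 Mb, had folds of 4.39 and 8.71, and one at 2.09 Mb had 4.39 and 8.20. At 1.66 Mb an intergenic peak was called in all 3 libraries, with folds of 3.92 and 6.25 in MPP replicates 1 and 2 and 5.55 in HSC, so it is no member. A cluster of blood enhancers of Myc is known far downstream of the gene; its modules' positions were not compared here, and this stretch was looked at after its values were seen. Nearer to the gene than that shared peak, the farthest peaks lay at 1.63 Mb in MPP replicate 1, 0.196 Mb in MPP replicate 2 and 0.184 Mb in HSC, and no peak there was a member. Close to the gene start, MPP replicate 1 had peaks at 0.0023 and 0.0173 Mb. MPP replicate 2 had peaks at -0.0018 and 0.0144 Mb, which did not overlap those of replicate 1.

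**Figure D4:**
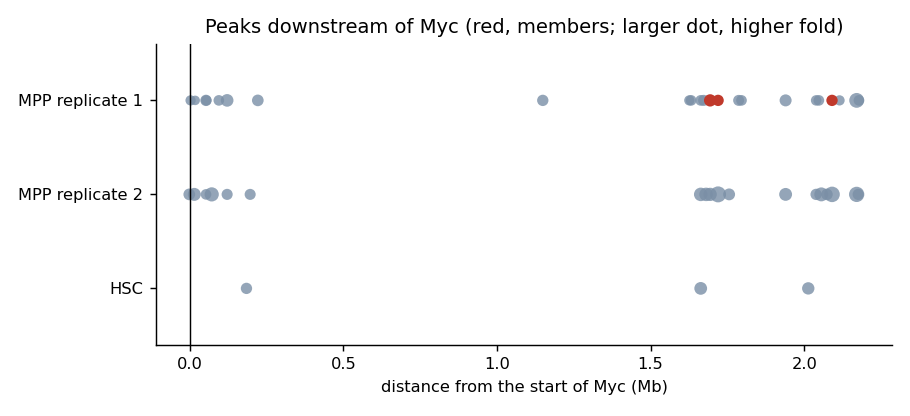
Peaks of MPP replicate 1, MPP replicate 2 and HSC (rows, top to bottom) by distance from the start of Myc in Mb (x axis); dot area grows with fold, and members, drawn in the MPP replicate 1 row, are red. The members sit at 1.69, 1.72 and 2.09 Mb, and a peak of all 3 libraries lies at 1.66 Mb.

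The HSC library had a lower background than both MPP libraries. The genome-wide background was 2.87 fragments in MPP replicate 1, 1.08 in MPP replicate 2 and 0.604 in HSC, and the lowest called pileups were 10, 6 and 5. Scaled to the HSC background, the members' pileup had a median of 4.00 from MPP replicate 1, and 27.8% (555 of 1997) would reach 5 fragments. From MPP replicate 2 the median was 7.26, and 93.0% (1858) would. Over all peaks the share was 21.8% for the first MPP library and 93.0% for the second. Both scalings put 538 members, 26.9%, at or above the lowest HSC pileup. For intergenic peaks that HSC did call, the scaled medians were 5.47 and 11.2 and the HSC pileup measured had a median of 10. Those peaks were selected by their HSC call, so they do not say which scaling holds for members that HSC did not call. The scalings thus give different shares, and the part of depth in the missing HSC calls was not tested.

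**Figure D5:**
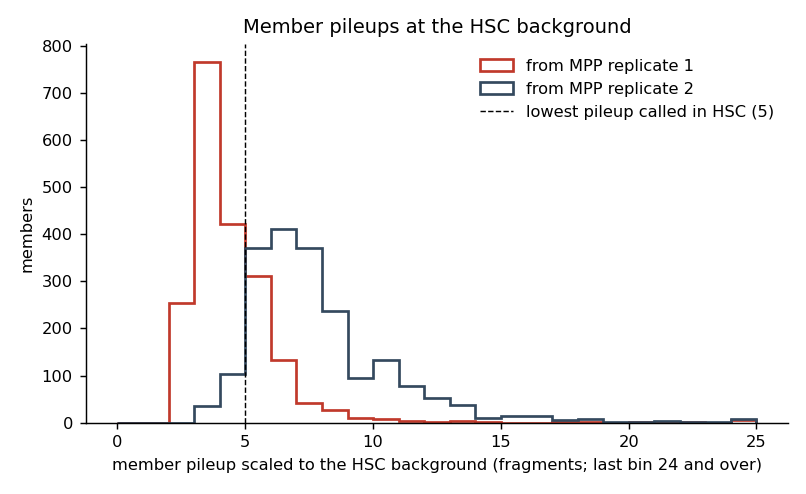
Number of members (y axis) by pileup scaled to the HSC background in fragments (x axis, bins of 1, last bin 24 and over), from MPP replicate 1 and from MPP replicate 2. The dashed line is the lowest pileup called in HSC, 5; 27.8% of members from replicate 1 and 93.0% from replicate 2 lie at or above it.

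The rule left out peaks that overlapped an HSC peak, which largely sets how few members had an HSC summit close by. The nearest HSC summit lay within 1 kb of 30 members (1.5%), within 10 kb of 9.46%, within 50 kb of 34.9% and within 100 kb of 52.9%, with a median distance of 90260 bp. The median was 91972.5 bp for MPP-only reproducible peaks inside genes and 99557 bp for those at gene ends. For intergenic peaks of MPP replicate 1 alone it was 122397 bp.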

How the data were processed

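RXRA CUT&RUN peaks were analysed in 3 libraries, 2 of MPP and 1 of HSC. The submitters' processing notes name mm10 as build, and as tools MACS2 2.1.4, Bowtie2 2.3.4.1, Trim Galore 0.4.2 and cutadapt 1.9.1, without settings. The authors deposited 1 narrowPeak list per library, so peaks were called per sample. Peak names of MPP replicate 1 and HSC share a tag that MPP replicate 2 lacks, whose meaning is not stated. The deposited fold enrichment is a ratio, at the summit, of pileup over local background, and the deposited −log10 p-value and −log10 q-value are as MACS2 writes them. The deposited score is 10 times −log10 q and was used for nothing.

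Pileup and background were recovered from fold and p with a Poisson tail, with a whole pileup (to 0.001 in −log10 p) for 100% of MPP replicate 1, 99.99% of MPP replicate 2 and 99.98% of HSC peaks. The lowest background in a list stands for its depth, since no read totals were used here. Intervals are exact binomial (Clopper-Pearson) or Poisson at 95% and cover counting error only. Genes are those of a RefSeq table of GRCm38.p6, the same build, 49980 in all. The code was tested on simulated data and its overlaps checked with bedtools 2.31.1. Other tools were Python 3.11.15, pandas 2.3.3 and scipy 1.17.1.

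The members, the 14 gene lists and the naming rule were chosen with earlier results of these data known. The rule names the 12 members of best worse rank, the 3 largest clusters, the 3 members farthest from genes, the 10 genes with most members, up to 4 genes per list, and Rxra, Rxrb, Rxrg and Myc. Chromosomes M and Y and unplaced contigs were left out of it. Motifs within the members were planned and not run, because the genome sequence was not used here.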

Additional observations from a re-analysis of the deposited data

How the results depend on the processing

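With q of at most 1e-05 in every list, there were 1102 members, of which 905 are among the 1997 and 197 are not, with a median fold of 5.64 (MPP replicate 1) and 6.67 (MPP replicate 2). The HSC limit was kept at 5 fragments, the lowest pileup of the full HSC list, and the shares reaching it became 48.5% and 100%. The stricter q itself removes weaker MPP peaks, so these shares do not show what HSC could call at that q. The share in clusters became 17.2%, and the share of protein-coding genes near a member 8.19%. Without one MPP library, so that any peak of the other without an HSC counterpart counts, the number of members was 3453 (without replicate 1) to 6456 (without replicate 2), the share in clusters 35.9 to 46.8%, and the share of genes 20.3 to 32.6%. Median folds were then 5.29 in replicate 2 and 4.29 in replicate 1, and 88.1% and 15.9% reached the lowest HSC pileup. Requiring 50% overlap of both peaks gave 24.3% in clusters and 13.1% of genes. A distance of over 5 kb from any gene end gave a median protein-coding distance of 24849 bp, 25.1% reaching the HSC pileup from replicate 1, 24.5% in clusters and 7.38% of genes. Protein-coding genes alone as the limit gave 19022 bp, 32.4% in clusters and 17.7% of genes. With the shorter and the longer planned gap 19.0% and 34.6% of members were in clusters. Against the 5th percentile of HSC pileups 12.2% and 74.5% of members were high enough from replicates 1 and 2, and against the 25th percentile 5.46% and 53.9%.

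In the lists, a window of 100 kb (22.2% of all genes) gave 13 stem cell regulators, 9 lymphoid, 4 erythroid and megakaryocyte, 6 MYC network and 3 muscle genes. A window of 20 kb (6.74%) gave 1 heptad, 5 stem cell regulator, 7 myeloid, 3 lymphoid, 1 RXR and partner, 2 RXR target, 4 cell cycle and 1 neuron genes. With the stricter q (8.19%), added after seeing the data, there were 5 stem cell regulators, 4 myeloid, 1 erythroid and megakaryocyte, 2 RXR and partner, 3 MYC network, 5 cell cycle and 9 inflammatory genes. Of the recomputed values 86 stayed within 1.5 times (counts) or the 95% interval (medians and shares), and 52 did not. Leaving out members of high local background, also added after seeing the data, moved none of them beyond it. The planned motif alternatives were not run. No paired analysis was possible because HSC has a single library, whose label carries no replicate number, and no test was made. The cause of these moves was not tested. The part of depth in what was called in HSC was not tested either.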
